A study of Mus musculus with 282 samples.

Results

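The Serpina3 genes lie side by side on mouse chromosome 12 and encode serpins of clade A. Serpina3f, Serpina3g, Serpina3h, Serpina3i and Serpina3n were taken by symbol from the deposited count table, which gave 5 genes of 49671 Ensembl genes. In all, 14 genes of the table carry a Serpina3 symbol. The 5 were picked with their levels and their presence from cell to cell in these data already known. Those values are therefore given as a description and not tested across cells. The 1 comparison tested, between 2 series of libraries described below, carries the same limit for these 5 genes. The data were 282 single hematopoietic stem cells of mouse bone marrow, sorted by surface markers as LSK, CD48-/lo and CD150+, with LSK standing for cells that lack lineage markers and carry Sca-1 and Kit. All cells belonged to 1 group. Every animal was homozygous for the rtTA transactivator at Rosa26 and for H2B-GFP at Col1a1, and none was induced with doxycycline. The series describes 6 mice aged 12 to 22 weeks in 2 experiments, but no label ties a cell to a mouse.

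A cell was kept at 100000 gene reads and 1000 genes, which left 232 cells with a median of 280096 gene reads (116009 to 1680714). The labels give each library a code that begins with 32 or 29, called library series L32 and L29 here, and an HSC number, and these make 6 sets of cells. A further number before the well position is called the plate here. L32 held 22, 44, 38 and 39 kept cells in HSC-2, HSC-3, HSC-4 and HSC-5, and L29 held 46 and 43 kept cells in HSC-3 and HSC-4. Cells of L29 HSC-4 differed from the rest: they had 4151 genes in the median cell, where the other 5 sets had 5126 to 5686, and mitochondrial reads made up 6.66%, where the other 5 had 3.28 to 3.73%. All 20 genes of a list of stem cell genes reached 10% of the kept cells, with Angpt1 in 92.7% and Meis1 in 88.4%. L32 HSC-2 and HSC-3 also held near-empty wells, with fewer gene reads than spike-in reads. Of the 20 genes, Esam, Tek and Erg were higher there, at 668, 353 and 293 CPM. In the kept cells of these sets they were at 254, 28.5 and 45.9 CPM. Of marker lists for other cells, 0 of 8 T and NK cell genes, 0 of 6 mast cell and basophil genes, 1 of 12 myeloid genes (Lyz2, in 87.1%), 1 of 8 B cell genes, 2 of 10 erythroid genes, 4 of 8 megakaryocyte genes and 3 of 8 endothelial and stromal genes reached it. No molecular identifiers were used, so binomial intervals and floors cover counting error alone.

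Serpins trap serine or cysteine proteases by offering them a loop that the protease cleaves, after which enzyme and inhibitor stay bound. Where humans have a single SERPINA3 gene, for alpha-1-antichymotrypsin of the acute phase, the mouse has a row of copies that differ mainly in that loop. Serpina3g, also called Spi2A, acts inside the cell on lysosomal cathepsins and is a target of NF-kB in mouse T cells. Serpina3n is secreted in the mouse, blocks granzyme B and leukocyte elastase, and rises with glucocorticoids and inflammation.

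The 5 genes read from the same strand. In mm10, Serpina3f spans chr12:104214544-104221129, Serpina3g spans chr12:104236245-104241939, Serpina3h spans chr12:104247905-104253669, Serpina3i spans chr12:104263122-104269372 and Serpina3n spans chr12:104406729-104414329. GENCODE M21 types Serpina3h as a transcribed pseudogene. RefSeq promoters (GRCm38.p6) were found for 4 of the 5 genes, with no entry used for Serpina3h. The 250 bases before the start site are shown, 5′ to 3′ on the plus strand, because these neighbours share sequence and differed widely in their reads. Capitals mark matches to the motifs described after them.
Serpina3g, chr12:104235897-104236146: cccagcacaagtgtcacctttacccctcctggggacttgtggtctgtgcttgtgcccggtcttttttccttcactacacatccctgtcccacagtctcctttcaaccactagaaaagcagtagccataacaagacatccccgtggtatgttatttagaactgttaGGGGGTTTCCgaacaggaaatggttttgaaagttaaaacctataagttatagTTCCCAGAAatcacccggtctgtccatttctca
Serpina3f, chr12:104214294-104214543: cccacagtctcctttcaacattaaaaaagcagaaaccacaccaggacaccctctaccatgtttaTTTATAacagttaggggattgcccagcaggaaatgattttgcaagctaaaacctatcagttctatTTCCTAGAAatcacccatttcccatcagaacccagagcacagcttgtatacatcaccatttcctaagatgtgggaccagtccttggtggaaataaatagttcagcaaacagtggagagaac
Serpina3i, chr12:104262872-104263121: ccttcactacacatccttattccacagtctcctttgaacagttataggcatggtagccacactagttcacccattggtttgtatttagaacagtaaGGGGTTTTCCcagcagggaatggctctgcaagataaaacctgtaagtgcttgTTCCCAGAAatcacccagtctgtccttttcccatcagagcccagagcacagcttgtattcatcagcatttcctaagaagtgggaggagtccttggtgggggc
Serpina3n, chr12:104406458-104406707: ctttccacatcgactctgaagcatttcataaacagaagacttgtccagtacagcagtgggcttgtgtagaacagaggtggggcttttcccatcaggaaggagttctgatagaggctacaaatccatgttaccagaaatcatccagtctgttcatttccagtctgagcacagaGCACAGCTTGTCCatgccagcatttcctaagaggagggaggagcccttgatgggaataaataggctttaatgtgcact

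The motifs were chosen with these sequences in view and searched on both strands of the 300-base RefSeq windows, which run 50 bases past the start. A STAT site, TTCNNNGAA, began 33 bases before the start of Serpina3g, 121 before that of Serpina3f and 102 before that of Serpina3i, and 8.30% of the 32851 promoters held it. The NF-kB consensus matched 85 bases before the start of Serpina3g and 154 before that of Serpina3i, against 8.46% of all promoters. The glucocorticoid receptor palindrome, GNACA and TGTNC with 3 bases between them, matched 78 bases before the start of Serpina3n and is held by 0.475% of promoters. These distances count from the RefSeq start, which for Serpina3f and Serpina3i is the first base of the gene span given above. For Serpina3g the printed window ends at chr12:104236146, upstream of its span, which begins at chr12:104236245. Its distances from the span would therefore be longer, and distances between the genes depend on the start taken. RefSeq gives Serpina3f a further start downstream, from which its STAT site lies 210 bases away. TATAAA was found in the printed Serpina3f window alone of these 4 and outside the window of the further start, on the minus strand, against 13.6% of promoters, and the interferon element, GAAA repeated after 2 bases and in 3.44% of promoters, in none of the 4. No motif match overlapped another there. Over aligned bases the Serpina3f window was 83.7% identical to that of Serpina3g, the Serpina3i window 81.7% and the Serpina3n window 71.7%. A match describes letters and not a bound factor.

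Serpina3g was the expressed gene of the cluster. It reached 10 CPM (reads per 1000000 gene reads of the cell), or 2.80 reads in the median cell, in 197 of 232 cells, a share of 84.9% (exact binomial interval 79.6 to 89.3%) and of 86.0% ± 12.1 over sets (SD, n = 6). Its mean was 922 CPM, the 78th highest of all genes, and it held 94.2% of the reads of the 14 Serpina3 genes. Per length its mean was 438 CPM per kb, against 20.3 for Serpina3f, 2.68 for Serpina3n, 2.05 for Serpina3h and 1.35 for Serpina3i.

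In L32, Serpina3g had a median of 798 CPM in HSC-2, 763 in HSC-3, 868 in HSC-4 and 872 in HSC-5, with highest cells of 4945, 5272, 2823 and 3607 CPM. In L29 the median was 384 CPM in HSC-3 and 271 in HSC-4, with highest cells of 3082 and 4059 CPM. The lowest cell was at 0 in every set. The share of cells at 10 CPM was 95.5, 88.6, 89.5 and 94.9% in the 4 L32 sets in that order, and 84.8 and 62.8% in the 2 L29 sets. Both L29 medians lay under all 4 L32 medians, and the share in L29 HSC-4 was the lowest of the 6. Within L32, the 2 plates of a set differed as well: plate 2 had the higher median in HSC-3 (1027 against 581 CPM), HSC-4 (977 against 691 CPM) and HSC-5 (1308 against 603 CPM).

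**Figure D1:**
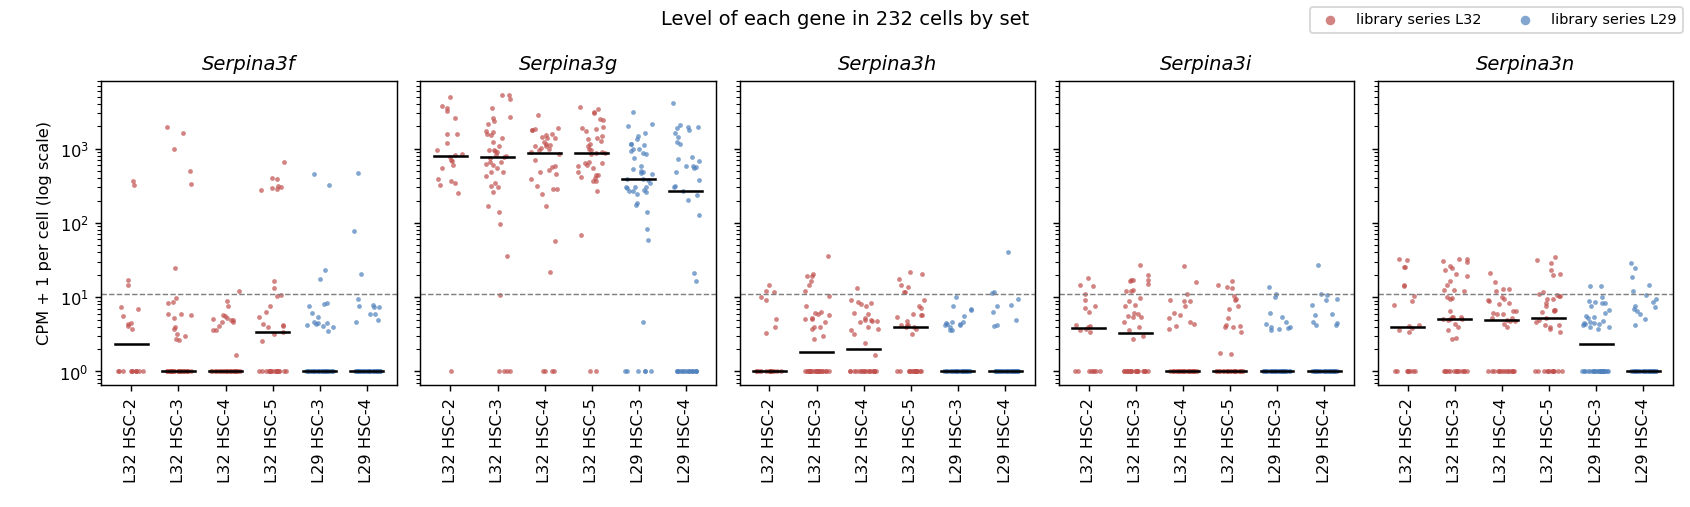
Level of each Serpina3 gene in each of 232 kept cells, as CPM + 1 on a log scale, in the 4 L32 sets and then the 2 L29 sets. Black bars are medians and the dashed line is 10 CPM. Serpina3g fills the range from 100 to 5272 CPM with a separate row of cells at 0, Serpina3f has 18 cells at 100 CPM or more, and no cell passes 39.4 CPM for Serpina3h, Serpina3i or Serpina3n.

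Between cells Serpina3g was nearly all or nothing. It had no read in 33 cells, under 10 CPM in 2, 10 to 100 CPM in 9, 100 to 1000 CPM in 114 and 1000 CPM or more in 74. Few cells therefore lay near the 10 CPM line: those just above it were at 15.3 CPM and up, and the higher of the 2 just below was at 9.70 CPM. Among the 197 cells that carried it, the median was 772 CPM, and the 10th and 90th percentiles of 247 and 2373 CPM were 9.61-fold apart.

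The 197 cells with Serpina3g had a median of 286613 gene reads, against 256569 in the 35 cells under 10 CPM. In each of those 35 cells, 3 reads would have given at most 25.1 CPM, and together they held 3 Serpina3g reads in 9108857 gene reads. The cells with Serpina3g had a median of 5283 genes and a mitochondrial share of 3.56%, against 4508 genes and 4.29% in the cells without. That contrast pools the sets, and 16 of the 35 cells without Serpina3g came from L29 HSC-4. Leaving that set out, 170 cells with Serpina3g had medians of 5381 genes and 3.53% mitochondrial reads, against 4875 genes and 3.32% in 19 cells without, so the mitochondrial difference turned round. Within sets, Serpina3g CPM had a mean rank correlation of 0.076 ± 0.176 with the number of genes, positive in 4 of 6 sets, and of -0.240 ± 0.189 with the mitochondrial share, negative in 6 of 6 sets (SD over sets). The part of mitochondrial share and gene number in the pattern was not tested. In the kept cells of L32 HSC-2 and HSC-3 Serpina3g summed to 1179 CPM, against 79.4 CPM (49 reads, in 6 wells) in the 38 near-empty wells of these sets, which had fewer gene reads than spike-in reads.

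For its mean, Serpina3g was missing from more cells than any gene as abundant: of the 78 genes with a mean at least as high, itself included, 0 had a lower share, and their median share was 100%. Serpina3f stood at the same edge of the distribution. Of the 5144 genes with a mean at or above its 46.5 CPM, itself included, 2 had a smaller share of cells than its 12.1%, and the median share among them was 39.7%.

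**Figure D2:**
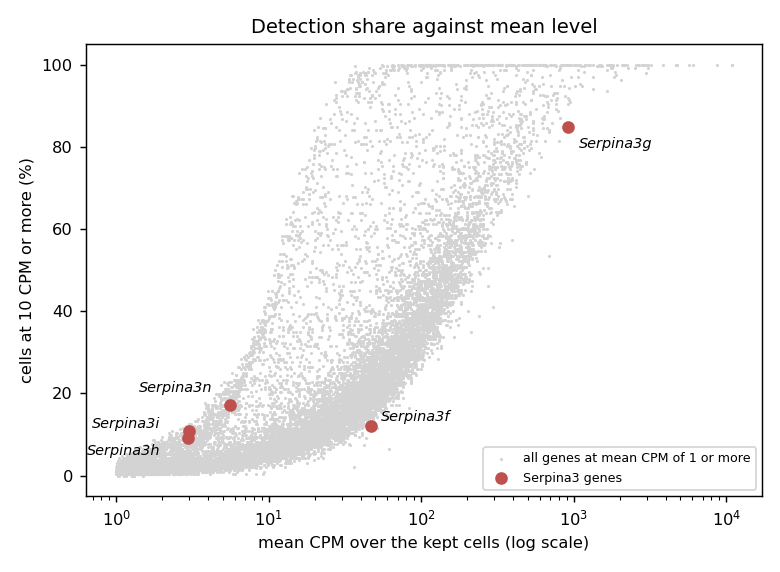
Share of the 232 kept cells at 10 CPM or more (%) against mean CPM on a log scale, with 1 grey point per gene and the 5 Serpina3 genes in red. Serpina3g (922 CPM, 84.9%) and Serpina3f (46.5 CPM, 12.1%) lie along the lower edge of the cloud, and Serpina3h, Serpina3i and Serpina3n have means of 2.94, 3.01 and 5.53 CPM with shares of 9.05, 10.8 and 17.2%.

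Serpina3f, the neighbour of Serpina3g, was carried by few cells but at a high level. It had no read in 136 cells, a read but under 10 CPM in 68, 10 to 100 CPM in 10 and 100 CPM or more in 18, a line set after seeing the values. The 18 cells ranged from 273 to 1981 CPM with a median of 378 CPM, the highest cell below the line was at 75.8 CPM, and the 18 held 94.7% of all Serpina3f reads. They were spread as 2 of 22, 5 of 44, 0 of 38 and 8 of 39 cells over the 4 L32 sets, and 2 of 46 and 1 of 43 cells over the 2 L29 sets. For the count of 0 in L32 HSC-4 the exact binomial interval reaches a share of 9.25%. Their median depth was 285832 gene reads, against 280096 over all kept cells.

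All 18 cells with high Serpina3f carried Serpina3g, at 265 to 5272 CPM. The reverse did not hold: of 74 cells with Serpina3g at 1000 CPM or more, 63 had Serpina3f under 100 CPM. In the 18 cells Serpina3f reads were 7.24 to 118% of Serpina3g reads, with a median of 31.9%, and exceeded them in 2 cells. In the other cells there were 0.286 Serpina3f reads per 100 Serpina3g reads.

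**Figure D3:**
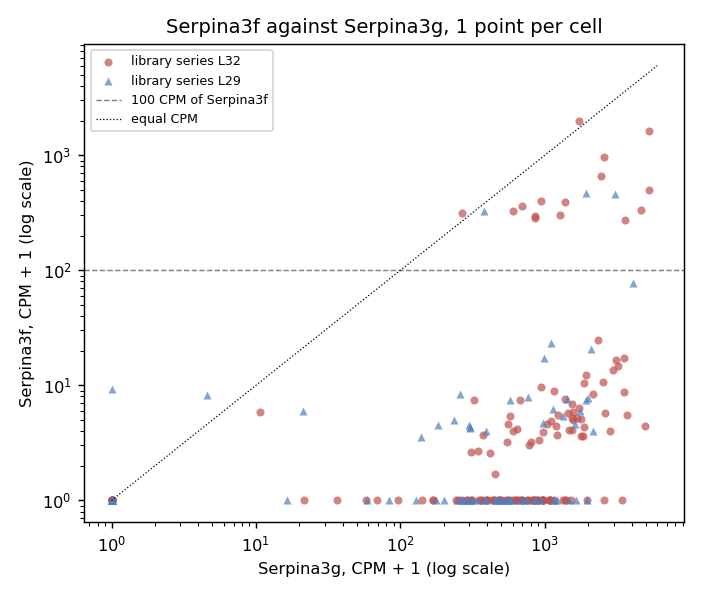
Serpina3f against Serpina3g in each cell, both as CPM + 1 on log scales, with circles for L32 and triangles for L29. The dashed line is 100 CPM of Serpina3f and the dotted line equal levels. The 18 cells above the dashed line all lie at 265 CPM or more of Serpina3g, and 2 of them lie above the dotted line.

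Serpina3n, Serpina3i and Serpina3h were found at a trace level. Serpina3n reached 10 CPM in 40 cells (17.2%; 18.1% ± 10.3 over 6 sets), Serpina3i in 25 (10.8%) and Serpina3h in 21 (9.05%), with highest cells of 33.7, 26.5 and 39.4 CPM. Serpina3n was at 10 CPM in 6 of 22, 14 of 44, 5 of 38 and 8 of 39 cells of the L32 sets, and in 2 of 46 and 5 of 43 cells of the L29 sets. Serpina3i was there in 4, 10, 3 and 4 cells of the L32 sets and in 2 and 2 cells of the L29 sets. Serpina3h was there in 3, 7, 1 and 7 cells of the L32 sets and in 0 and 3 cells of the L29 sets. The unprocessed pseudogene Serpina3e-ps, on the opposite strand, behaved alike, with 12 cells at 10 CPM. Serpina3a, Serpina3b, Serpina3c, Serpina3j, Serpina3k and Serpina3m had no cell at 10 CPM. For 0 of 232 cells the exact binomial interval reaches a share of 1.58%.

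The reads of these trace genes followed the reads of Serpina3g. Per 100 Serpina3g reads there were 0.603 of Serpina3n, 0.324 of Serpina3i, 0.315 of Serpina3h and 0.270 of Serpina3e-ps. Over the 6 sets the highest ratio was 1.53 times the lowest for Serpina3n, 1.89 times for Serpina3i, 1.97 times for Serpina3h and 1.75 times for Serpina3e-ps, but 55.9 times for Serpina3f. Where a fixed ratio would give at least 0.5 read in a cell, the squared deviation from it averaged 0.967 times the expected count for Serpina3n, 1.22 for Serpina3i and 1.58 for Serpina3h, against 155 for Serpina3f. A value of 1 is what counting error alone would give. In the 35 cells under 10 CPM of Serpina3g there were 0 reads of Serpina3n, 0 of Serpina3h, 1 of Serpina3i and 4 of Serpina3f, against 411, 215, 220 and 3094 reads in the 197 cells with it.

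**Figure D4:**
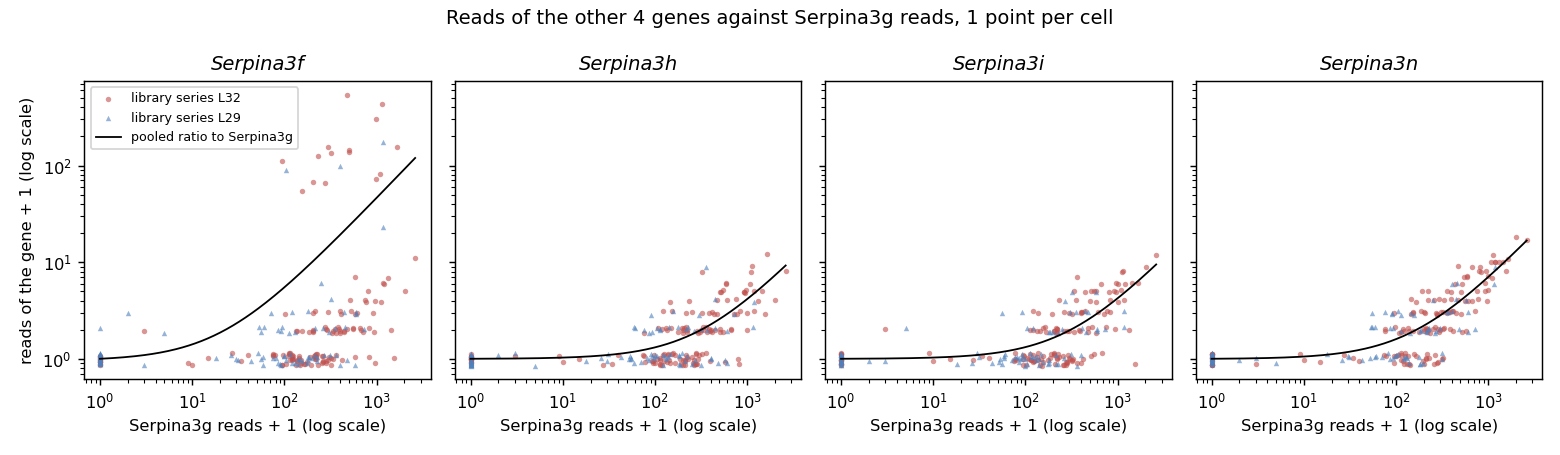
Reads of Serpina3f, Serpina3h, Serpina3i and Serpina3n in each cell against Serpina3g reads, both + 1 on log scales, with circles for L32 and triangles for L29. The black line is the ratio of summed reads over all kept cells. Serpina3h, Serpina3i and Serpina3n lie along their lines, at 0.315, 0.324 and 0.603 reads per 100 Serpina3g reads, while Serpina3f splits into cells far above and cells below its line.

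The genes also share sequence. Over the aligned bases of the longest GENCODE M21 transcripts, gaps left out, Serpina3f was 88.8% identical to Serpina3g, Serpina3h 88.6%, Serpina3i 88.0% and Serpina3n 82.1%. The aligned bases were 1782 for Serpina3f, 987 for Serpina3h, 1777 for Serpina3i and 1749 for Serpina3n. Of all 50-base windows in each gene's transcripts, 14.1% in Serpina3h, 8.82% in Serpina3e-ps, 6.76% in Serpina3i, 6.03% in Serpina3f and 2.53% in Serpina3n occurred unchanged in Serpina3g. In Serpina3a, Serpina3b, Serpina3c, Serpina3j and Serpina3m, which had 1 to 11 reads in all kept cells, 0% did. In Serpina3k, with 15 reads, 0.0498% did, and in the pseudogene Serpina3l-ps, with 10 reads, 0.247% did. The longest identical runs shared with Serpina3g were 135 bases in Serpina3i, 121 in Serpina3e-ps, 120 in Serpina3h, 119 in Serpina3f and 100 in Serpina3n. Those of Serpina3i, Serpina3h and Serpina3f lie before the annotated start codon of Serpina3g. A pair of coding runs is printed here because a read that falls inside them cannot be placed by its letters alone. In the first, from exons 4 and 5 of Serpina3g (chr12:104240321-104240397 and chr12:104241036-104241079), all bases are shared with Serpina3e-ps and the capitals are shared with Serpina3n as well. The longest coding runs shared with Serpina3h (62 bases) and Serpina3i (46 bases) overlap this stretch and are not printed. The second lies in exon 4 (chr12:104240264-104240319).
Serpina3g with Serpina3e-ps and Serpina3n: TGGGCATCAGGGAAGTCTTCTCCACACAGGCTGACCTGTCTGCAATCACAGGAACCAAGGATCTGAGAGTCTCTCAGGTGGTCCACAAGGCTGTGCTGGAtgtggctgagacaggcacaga
Serpina3g with Serpina3f: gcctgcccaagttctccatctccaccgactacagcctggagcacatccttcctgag
Read length and the handling of reads that match several genes are not given in the sources used here, so the part of shared reads in the trace levels was not tested.

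Counted per cell, the 5 genes were nested. No gene was at 10 CPM in 35 cells, 1 in 133, 2 in 33, 3 in 16, 4 in 11 and all 5 in 4. The single gene was Serpina3g in all 133 cells, and no cell had another of the 5 without it. Serpina3g was in most cells, so such overlap is near what the shares within sets would give. That is 24.8 cells of 28 for Serpina3f, 18.5 of 21 for Serpina3h, 22.1 of 25 for Serpina3i and 35.0 of 40 for Serpina3n. At least 2 genes were present in 64 cells (27.6%). The median Serpina3g level in the cells with 1, 2, 3, 4 and 5 genes was 546, 977, 1917, 3235 and 3087 CPM, while the median depth of these 5 classes ranged from 237463 to 304898 gene reads with no order. Pairs met more often than their shares within sets would give: Serpina3f and Serpina3n in 16 cells against 5.71, Serpina3h and Serpina3n in 15 against 4.96, and Serpina3h and Serpina3i in 9 against 3.07.

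**Figure D5:**
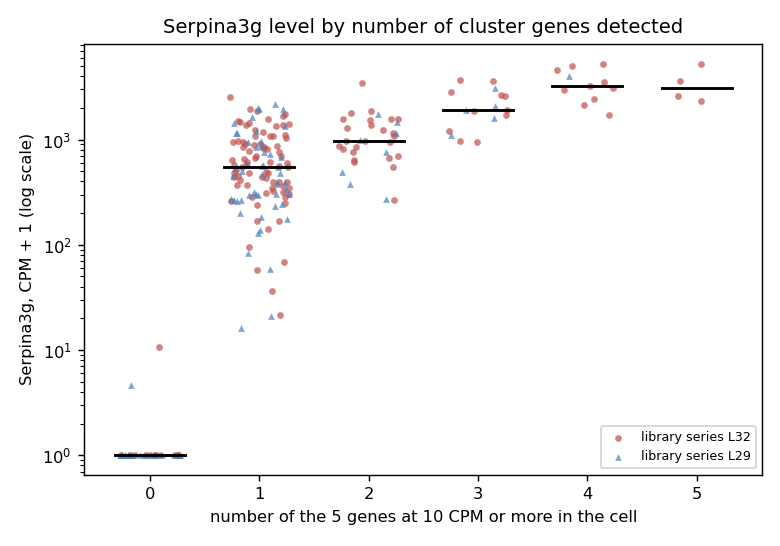
Serpina3g in each cell, as CPM + 1 on a log scale, by how many of the 5 genes reached 10 CPM there, with circles for L32, triangles for L29 and bars for medians. Medians are 546 CPM in cells with 1 gene and 3235 CPM in cells with 4.

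Across cells the levels rose together. The mean rank correlation within sets, adjusted for genes detected, depth and plate, was 0.723 ± 0.127 between Serpina3g and Serpina3n, 0.648 ± 0.064 between Serpina3g and Serpina3i, 0.586 ± 0.139 between Serpina3g and Serpina3h and 0.544 ± 0.180 between Serpina3f and Serpina3g (SD over 6 sets, 232 cells, positive in 6 of 6 sets). Among the 197 cells with Serpina3g, and adjusted for its level too, the correlation was 0.043 ± 0.291 between Serpina3h and Serpina3i, 0.097 ± 0.129 between Serpina3i and Serpina3n and 0.263 ± 0.254 between Serpina3h and Serpina3n. On the same scale Serpina3f was at 0.196 ± 0.179 with Serpina3i, 0.142 ± 0.125 with Serpina3n and 0.123 ± 0.138 with Serpina3h, positive in 5 of 6 sets for each. Cells of a set share a library series and 1 or 2 plates, and their correlations are descriptive.

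Outside the cluster the correlations were lower. Of 9688 genes at 10 CPM in 10% of cells, 48.0% were positively correlated with Serpina3g, with a median of -0.004 and an SD over genes of 0.072. The highest outside the cluster with a name and 1 sign in all 6 sets were Igf1 (0.295 ± 0.083), the growth factor, Sgpp1 (0.261 ± 0.159), a phosphatase of sphingosine-1-phosphate, and Ctsb (0.231 ± 0.135), cathepsin B, a protease that Serpina3g inhibits. The lowest were Ss18l2 (-0.241 ± 0.088), Dcun1d5 (-0.226), Dars (-0.220), Rexo2 (-0.216), the clamp loader subunit Rfc5 (-0.214) and the primase subunit Prim1 (-0.207). For Serpina3f the highest outside the cluster were Slc33a1 (0.275), Mylip (0.265) and Gimap1 (0.257), and the lowest Atox1 (-0.30), Eif5b (-0.242), Snhg8 (-0.233), Prdx2 (-0.229), Huwe1 (-0.225) and Nploc4 (-0.224). For Serpina3n they were Pramef8 (0.277), Nup133 (0.228) and Wiz (0.223) at the top and Mief1 (-0.296), Dnm3 (-0.232), Atp8a1 (-0.226), Samd1 (-0.223) and Rpap3 (-0.221) at the bottom. For Serpina3i they were Ctsb (0.245), Sin3b (0.244) and Zfp36 (0.235), against Tmem205 (-0.246), Snrnp48 (-0.239), Grk6 (-0.229), Ctps (-0.225), Rexo2 (-0.214) and Macf1 (-0.210). Some of these genes summed higher in the near-empty wells than in the kept cells of L32 HSC-2 and HSC-3. Among them were Snhg8 (576 against 197 CPM), Macf1 (217 against 88.4), Rpap3 (165 against 53.2), Dnm3 (90.8 against 4.26) and Samd1 (19.5 against 11.2). Dars stood at 233 against 252 CPM. The part of this background in the correlations was not tested. Weak values in sparse counts are given as values alone.

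Grouped by list, cysteine cathepsins were widely present, with 9 of 10 at 10 CPM in 10% of cells and Ctsb in 76.3%. Of these 9, 7 were positively correlated with Serpina3g (median 0.029), led by Ctsb, Ctsc (0.088 ± 0.103) and Ctsl (0.084 ± 0.238). Ctsb summed to 384 CPM in the kept cells of L32 HSC-2 and HSC-3 and to 198 CPM in their near-empty wells. Of the serine proteases of granules, the class that Serpina3n inhibits, 1 of 13 passed, Prtn3, with 0.026 ± 0.101, and Gzmb was at 10 CPM in 0 cells. Of 22 interferon response genes, 20 were positive (median 0.074), with Irf1 at 0.147 ± 0.138, Iigp1 at 0.144 ± 0.174 and Isg15 at 0.111 ± 0.113. Of 14 NF-kB pathway genes, 11 were positive (median 0.029), with Birc3 at 0.165 ± 0.160, Rela at 0.162 ± 0.139 and Tnfrsf1b, a TNF receptor, at -0.121 ± 0.168. Of 17 JAK-STAT genes, 9 were positive (median 0.018), with Stat6 at 0.177 ± 0.100 in 6 of 6 sets, Cish at 0.162 ± 0.262 and Socs2 at 0.126 ± 0.236. Of 6 glucocorticoid response genes, 4 were positive (median 0.011), with Nr3c1, the receptor, at 0.105 ± 0.254, Fkbp5 at -0.080 ± 0.249 and Per1 at 0.046 ± 0.201.

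Stem cell genes were mixed, with 12 of 20 positive (median 0.047), Fgd5 at 0.166 ± 0.193, Mllt3 at 0.151 ± 0.125 and Meis1 at -0.150 ± 0.127. DNA replication genes ran against Serpina3g: 15 of 15 were negative (median -0.090), with Prim1 and the helicase subunit Mcm6 (-0.153 ± 0.080) negative in 6 of 6 sets and Rrm1 at -0.136 ± 0.191. Within sets and without the adjustment, 13 of the 15 were negative (median -0.031). The summed level of the 16 replication genes nevertheless had a higher median in cells with Serpina3g, 942 CPM, than in cells without, 418 CPM, and without L29 HSC-4 the medians were 972 and 528 CPM. Among markers of other cell types, Lyz2 was at 0.016 ± 0.146, Cd79b at 0.052 ± 0.096 and Hbb-bs at 0.073 ± 0.281. Of 4 megakaryocyte genes, 2 were positive and 2 negative (median -0.024), with Gp9 at -0.097 ± 0.127. Of 3 endothelial and stromal genes, 1 was positive, Emcn at 0.111 ± 0.128, and 2 were negative (median -0.021). Summed over each list, 11 of the 17 lists had a higher median in cells with Serpina3g than in cells without, 2 a lower one and 4 the same. The interferon list had medians of 3073 and 2228 CPM in cells with and without Serpina3g, the NF-kB list 1224 and 839 CPM, and the myeloid list 593 and 409.7 CPM, with myeloid means of 642 and 576 CPM. Without L29 HSC-4 the medians were 3102 and 2612 CPM for interferon and 1236 and 1149 CPM for NF-kB. For the myeloid list they were 590.1 and 499 CPM. That list is nearly Lyz2 alone, which had a mean of 619 CPM over the kept cells, against 632 CPM for the list. The medians of the cathepsins and of the stem cell genes turned round. Cathepsins went to 1235 and 1292 CPM, from 1199.7 and 814 CPM with that set. Their mean stayed higher in cells with Serpina3g, at 1313 and 1146 CPM, from 1280 and 992 CPM with that set. Stem cell genes went to 6276 and 7067 CPM, from 6183 and 5673 CPM with that set. Their mean turned round too, to 6335 and 6888 CPM, from 6207 and 5671 CPM. The part of the marker lists in the presence of Serpina3g was not tested.

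Among serpins elsewhere in the genome, 5 of 54 reached 10 CPM in 10% of cells. These were Serpinf1 (PEDF) in 59.1% of cells, the granzyme B inhibitor Serpinb9 in 28.0%, the inhibitor of neutrophil proteases Serpinb1a in 26.7%, Serpinb6a in 21.6% and Serpinb6b in 15.9%. None of the 15 other clade A genes did. Serpina3g alone held 60.0% of all reads of the 68 serpin genes. On the per-length scale Serpinf1 followed it with a mean of 95.6 CPM per kb, against 438 for Serpina3g. Of the 5 serpins elsewhere that reached 10% of cells, 3 were positively and 2 negatively correlated with Serpina3g (median 0.009). Serpinb9 was at 0.109 ± 0.056, positive in 6 of 6 sets, Serpinb1a at -0.081 ± 0.146 and Serpinf1 at -0.042 ± 0.161.

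The sets allowed 1 test, L32 over L29, on counts summed per set (4 against 2). Labels name no animals, so the sets may share mice, and p-values measure the spread between sets alone. Over 16476 genes edgeR's quasi-likelihood test called 0 genes at an adjusted p under 0.05 (0% in either direction), with 1374 at an unadjusted p under 0.05. DESeq2 called 410 genes, 299 higher and 111 lower, and limma-voom called 0. None of the 5 Serpina3 genes was called by any of the 3.

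For Serpina3g the sums gave 1367, 1054, 851 and 959 CPM in L32 and 623 and 636 CPM in L29, or 1058 ± 222 CPM (SD, n = 4) against 629.7 ± 9.14 CPM (SD, n = 2). The 6 values do not overlap between series. Its log2 fold change was 0.83 (SE 0.23, adjusted p = 0.4688 with edgeR), with adjusted p from 0.0697 to 0.896 over the alternatives, and the exact two-sided permutation test over sets gave p = 0.133, where 0.0667 is the smallest it can give. Serpina3n (log2 fold change 1.05, SE 0.78), Serpina3i (1.10, SE 0.85) and Serpina3h (0.92, SE 0.81) were also higher in all 4 L32 sets than in both L29 sets, as were 7.87% of all genes tested. Their adjusted p in edgeR ran from 0.7543 to 0.8006. Serpina3f had sums of 31.7, 104, 1.51 and 57.5 CPM in L32 and 21.8 and 13.7 CPM in L29, which overlap, with a log2 fold change of 1.52 (SE 1.35, adjusted p = 0.8018 with edgeR). The median over all genes was 0.07, and none of the genes of the 17 lists was called, with list medians of 0.56 for the cathepsins, 0.54 for JAK-STAT, 0.35 for the interferon response, 0.34 for NF-kB, 0.44 for both stem cell and replication genes and -2.12 for the 6 myeloid genes tested. In L29 HSC-4 the lower share of cells with Serpina3g came beside its fewer genes and higher mitochondrial share, whose part was not tested, and without that set the log2 fold change of Serpina3g was 0.90. Plate 2 occurs in L32 alone, and on plate 1 cells alone, a comparison added after seeing the data, the log2 fold change of Serpina3g was 0.71 (adjusted p = 0.719 with edgeR).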

How the data were processed

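The authors deposited read counts per gene and cell in 1 table. Per the submitters' processing notes, GSNAP and featureCounts (1.6.2) were used with mm10, and the description label names Ensembl release 87. How strand and multi-mapped reads were treated: not given in the sources used here. The labels' protocols describe template-switching cDNA with 22 PCR cycles and no molecular identifiers.

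From the counts, CPM (reads per 1000000 Ensembl gene reads of the cell) were taken. The 92 spike-in rows (11.7% of all counts) stayed out. Detection was 10 CPM, and floors use 3 reads. Correlations are Spearman within sets, on ranks adjusted for genes detected, gene reads and plate, averaged over sets by Fisher's z. Set sums were tested with edgeR 4.0.16 (TMM, filterByExpr, quasi-likelihood, Benjamini-Hochberg) in R 4.3.3. DESeq2 1.42.0 and limma 3.58.1 were alternatives. The correlation and test code was tested on simulated data. Members, the 17 gene lists and the tests were chosen with earlier results of these data known. Named genes are the cluster, serpins in 10% of cells, the 6 most correlated genes per direction with 1 sign in 6 sets, and up to 3 per list. Unnamed and predicted genes were passed over, and some genes are not reported here. Sequences come from RefSeq (promoters, GRCm38.p6) and GENCODE M21 (transcripts, GRCm38). No duplicate cells were found among the 232 kept cells, and depth per cell limits each share as its interval shows.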

Additional observations from a re-analysis of the deposited data

Results flagged for a closer look

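The share of cells at 10 CPM of Serpina3g in L29 HSC-4 was 62.8%, against 84.8 to 95.5% in the other 5 sets, and its gap to the nearest set was 0.673 of the whole range, over Dixon's 95% limit for 6 values. It was the 1 value over that limit among 14 checked over sets, and chance alone passes it for about 1 in 20. Serpina3g was picked with its detection known, so this flag is a description and not a test. The set also had the fewest genes per cell (median 4151) and the highest mitochondrial share (6.66%), whose part was not tested. Without it the share over the remaining cells was 89.9%.

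Serpina3g summed to 1179 CPM in the kept cells of L32 HSC-2 and HSC-3. The 38 near-empty wells of these sets, which no comparison between groups used, held 49 Serpina3g reads in 6 wells, or 79.4 CPM, above the 4.86 CPM that 3 reads would give. Serpina3f, Serpina3i and Serpina3n had 0 reads in these wells and Serpina3h had 1.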

How the results depend on the processing

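Across detection lines the share of cells with Serpina3g moved least of the 5: it was 85.8% at 1 CPM, 83.2% at 50 CPM, 87.9% with stricter cell limits (198 cells), 85.3% when every cell was thinned to 100000 reads and read at 1 read, and 82.9 to 89.9% with each set left out. The other shares depend on the line drawn. At 1 CPM they were 40.9% for Serpina3f, 41.4% for Serpina3h, 39.2% for Serpina3i and 56.9% for Serpina3n, with 168 cells holding at least 2 genes. At 50 CPM Serpina3h, Serpina3i and Serpina3n were at 0% and 19 cells held at least 2. Thinned to 1 read they were 26.7% for Serpina3f, 20.7% for Serpina3h and Serpina3i and 32.8% for Serpina3n, with 122 cells holding at least 2. A lower line admits cells with 1 read, which is the alternative's own construction. With each set left out, Serpina3f was at 9.33 to 13.9%, Serpina3h at 7.25 to 11.3%, Serpina3i at 7.98 to 12.4%, Serpina3n at 13.8 to 20.4%, and 47 to 58 cells held at least 2. All 90 alternative values of the 10 correlations between members moved by less than their SD over sets.

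Between L32 and L29, 410 genes were called with DESeq2, 2 without a filter on low counts (both lower), 1 with stricter cell limits (lower), 1 on plate 1 cells alone (lower; chosen after seeing the data) and 0 in every other alternative, each set left out included. The cause was not tested. Sets of both series carry HSC-3 and HSC-4, and the deviations of sets with the same number had correlations over genes of 0.023 and 0.008. The deviations of the 2 L29 sets mirror each other, so these values cannot show whether sets with the same number are related. With the replicate block by that number 0 genes were called, Serpina3g had a log2 fold change of 0.63, and Serpina3f turned to -0.33 (adjusted p = 0.997, edgeR). With one set of a series left out, the remaining set is assumed to vary like the others.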
